A study of Mus musculus with 4 samples.

Results

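NK1.1-positive T cells of the mouse liver were taken from 4 single-cell RNA libraries. A barcode, the tag of 1 droplet and normally of 1 cell, was a member if it held at least 3 UMIs (unique transcript molecules) of Cd3d, Cd3e and Cd3g together and at least 1 UMI of Klrb1c, which encodes NK1.1. It also had to hold at most 2 UMIs of the cell cycle genes Top2a and Mki67 together and none of Cd8a, Cd8b1, Cd79a, Siglech and Clec4f, which mark CD8 T cells, B cells, plasmacytoid dendritic cells and Kupffer cells. Members were thus chosen by measured values, and the levels of these genes are given below as description only. Barcodes under 300 genes or above 20% mitochondrial UMIs were set aside first, and of the 19176 that remained 804 met the rule. They numbered 66 in S/S mice after TNF, 439 in A/A mice after TNF, 95 in S/S mice at baseline and 204 in A/A mice at baseline.

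The mice were 2 months old and of the genotypes S/S or A/A, symbols that the labels do not spell out. They were studied untreated (baseline) or 3 h after an intraperitoneal injection of 500 ng TNF, an inflammatory cytokine. Each of the 4 groups was 1 library from the pooled liver cells of 2 mice, made with the 10x Genomics 3′ kit after non-parenchymal cells were enriched by slow centrifugation and live cells and macrophages by flow sorting. With 1 library per group no comparison between genotypes or treatments was tested: such differences are given as values, and the 95% intervals in brackets cover counting error only, not the differences between mice, sorts or libraries.

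T cells that carry NK1.1 include invariant NKT cells, which are abundant in mouse liver. Their semi-invariant T cell receptor recognises lipids presented by CD1d, their development needs the transcription factor PLZF (encoded by Zbtb16), and they release cytokines within hours of activation. Some gamma delta T cells and activated conventional T cells carry NK1.1 as well, and NK cells and group 1 innate lymphoid cells (ILC1) carry it without a T cell receptor. TNF acts through its receptors on many cell types and switches on NF-kB, whose first target genes include its own inhibitors.

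The libraries held 5848 barcodes (S/S TNF), 6531 (A/A TNF), 4983 (S/S baseline) and 3230 (A/A baseline), and the kept barcodes had medians of 4723.5 to 6504.5 UMIs. Members were deeper, with medians of 9350.5, 11549, 8602 and 13566.5 UMIs in the same order, and their summed counts were 626754, 5392749, 871983 and 2858346 UMIs. No member barcode was shared between libraries. Per the file headers, the TNF libraries were counted with Cell Ranger 6.1.2 and the baseline libraries with 7.1.0, so counting version and TNF cannot be told apart. The ribosomal RNA transcript Rn18s took 6.19% of the UMIs in the S/S baseline library, against 13.9 to 16.7% in the other libraries.

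CD3 counts were well above the limit of the rule in most members, while Klrb1c counts lay nearer to theirs, above all at baseline. The median member held 15 CD3 UMIs in S/S after TNF, 19 in A/A after TNF, 18 in S/S at baseline and 23 in A/A at baseline, and 5, 6, 3 and 2 Klrb1c UMIs in the same order. At the edge, 9, 39, 26 and 52 members had exactly 1 Klrb1c UMI, while 80, 197, 311 and 105 barcodes met every other condition with none. Exactly 3 CD3 UMIs were found in 3, 4, 2 and 0 members, and exactly 2 in 2, 2, 4 and 4 barcodes just outside. Detection of Klrb1c where it should be present, in barcodes with Ncr1 and no CD3, was 96.3% in S/S after TNF, 93.6% in A/A after TNF, 83.8% in S/S at baseline and 93.8% in A/A at baseline. On the B cell side (Cd79a present, CD3 and Ncr1 absent) it was 0 of 260 barcodes in S/S after TNF, which allows up to 1.41%, and 0.442 to 0.952% in the other libraries. NK1.1 was thus rarely counted on the B cell side. Among barcodes with Ncr1 and no CD3 its share was lowest in S/S at baseline [77.1, 89.1]. That interval overlapped those of A/A after TNF [88.1, 97.0] and A/A at baseline [85.0, 98.3]. The S/S baseline barcodes were also shallower, with a median of 7148.5 UMIs against 8735.5 to 9309 in the other libraries. In every library Klrb1c took a larger part of the UMIs in these Ncr1-positive barcodes than in CD3-positive ones. How often NK1.1 was missed in T cells was therefore not tested.

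NK1.1-positive T cells made up a smaller share of T cells in both S/S libraries than in either A/A library. Of the barcodes with at least 3 CD3 UMIs, 21.7% [17.2, 26.8] were members in S/S after TNF and 43.0% [39.9, 46.1] in A/A after TNF. At baseline the share was 9.72% [7.94, 11.8] in S/S and 42.1% [37.6, 46.6] in A/A. As a share of all kept barcodes members made up 1.19%, 6.80%, 2.18% and 7.21% in the order S/S TNF, A/A TNF, S/S baseline, A/A baseline. With the rule as set, the intervals of S/S and A/A did not overlap at either time. The S/S share stayed below the A/A share of the same time under every other setting. When every barcode was thinned to 1000 UMIs the shares were 13.3% [7.08, 22.1], 23.7% [18.9, 29.0], 4.22% [2.52, 6.58] and 14.3% [8.55, 21.9] in the same order. At that depth the S/S TNF interval overlapped those of both A/A libraries, while the baseline intervals stayed apart. Thinned to 4000 UMIs, the shares after TNF were 20.5% [15.8, 26.0] in S/S and 42.7% [39.4, 46.0] in A/A. The flow sort and the gradients can set such shares, and each value comes from 1 preparation.

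**Figure D1:**
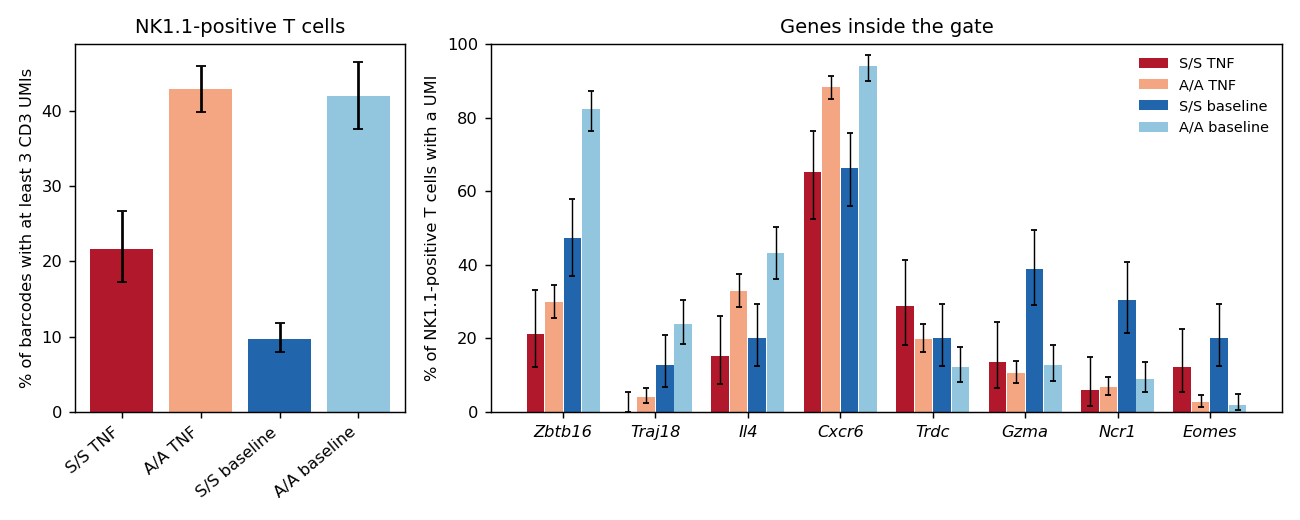
Left, NK1.1-positive T cells as a percentage of barcodes with at least 3 CD3 UMIs in each library; right, the percentage of NK1.1-positive T cells with a UMI of 8 genes, with exact 95% binomial intervals for counting error on all bars. On the left the S/S libraries stood at 21.7% after TNF and 9.72% at baseline, below the A/A libraries at 43.0% and 42.1%, and on the right Zbtb16 reached 82.4% in A/A at baseline.

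A pair of gates of the same libraries served for comparison, and here the 4 libraries were the replicates of a paired test. NK1.1-negative CD4 T cells (417 barcodes) met the same rule with Cd4 present and Klrb1c absent, and NK and ILC1 cells (355 barcodes) had Klrb1c and Ncr1 but no CD3. UMIs were summed per gate and library and compared with edgeR's quasi-likelihood test with the library as a block. Genes that define a gate were left out, and the conditions of the 4 libraries differ, so a fold change is a mean over conditions. The gates were split by CD3, Klrb1c, Cd4 and Ncr1, so genes that go with these can differ through the choice of cells alone. Differences in T cell receptor and NK receptor genes therefore describe the gates and are no independent support for them.

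Against CD4 T cells, NK1.1-positive T cells had higher levels of most NK receptor genes tested, most NKT1 genes and 9 of 18 cytotoxic genes. In this contrast 215 of 8029 genes (2.68%) were higher and 261 (3.25%) lower at an edgeR adjusted p under 0.05. Without the A/A TNF library, which held the most members, 144 were lower. Of 19 NK receptor genes tested, 14 were higher and 0 lower, with a median log2 difference of 3.12 against 0.00075 over all genes. Of 12 genes of the NKT1 program (the T-bet-driven, interferon-producing type), 10 were higher and 0 lower. Of 18 cytotoxic genes 9 were higher and 0 lower. Among 27 homing genes 5 were higher and 8 lower, and among 46 interferon-stimulated genes 0 were higher and 8 lower.

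The Ly49 receptor Klra7 had 516 UMIs in the members and 0 in the CD4 T cells, at least 74.4-fold higher against a floor of 3 UMIs over the 4 libraries. Klra5, another Ly49 gene, had 355 UMIs against 0, at least 51.2-fold higher. Ly49 genes are near-identical copies of each other, so the split of counts among them is uncertain. The lectin-like receptor genes Klrc1 and Klrc2, partners of CD94, were higher by 4.52 (edgeR adjusted p = 1.8e-05) and 4.74 (adjusted p = 3.7e-05) on the log2 scale. CD94 itself, Klrd1, was higher by 3.32 and the activating receptor NKG2D, Klrk1, by 3.81. These receptors were higher in 4 of 4 libraries, as was Cd160, a receptor of cytotoxic lymphocytes, by 3.12 (adjusted p = 1.7e-05).

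Gzmb, a granule protease, stood at 306, 148, 335 and 158 CPM (counts scaled to the total of the gate) in members in S/S TNF, A/A TNF, S/S baseline and A/A baseline, against 31.3, 21.8, 62.3 and 13.6 CPM in CD4 T cells. That is a log2 difference of 2.85 (adjusted p = 9e-06 by edgeR), with the libraries between 2.34 and 3.13. In such sums, more cells that express a gene and more of its RNA per cell cannot be told apart. The gene of T-bet, Tbx21, was higher by 1.09 (adjusted p = 0.0013, libraries 0.80 to 1.65), and Il2rb, the interleukin 2 and 15 receptor chain that T-bet drives, by 1.17 (adjusted p = 6e-05, libraries 1.07 to 1.37). Perforin, Prf1, was higher by 2.74. Gzma was higher by 4.05 (adjusted p = 0.0032), but its libraries ranged from 1.30 to 5.73.

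The NKT genes themselves differed less. Zbtb16 was at 31.9, 37.5, 132 and 405 CPM in members (S/S TNF, A/A TNF, S/S baseline, A/A baseline), against 0, 13.4, 15.9 and 207 CPM in CD4 T cells, a log2 difference of 1.79 (edgeR adjusted p = 0.0069). The chemokine receptor Cxcr6, carried by NKT cells of the liver, was higher by 0.995 (edgeR adjusted p = 0.0048, libraries 0.31 to 1.32). Il4 had a log2 difference of 1.22 with an adjusted p of 0.12. In the A/A baseline library the CD4 gate itself held 207 CPM of Zbtb16 and 83.9 CPM of Il4, where the members had 405 and 74.5 CPM. That gate was thus not free of NKT transcripts.

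Several receptor genes stood out among the lower ones, although the homing list as a whole had a median log2 difference of -0.037. Ccr7, the lymph node homing receptor, was at 1.60, 0.742, 5.73 and 0.350 CPM in members in S/S TNF, A/A TNF, S/S baseline and A/A baseline, against 88.0, 71.2, 25.3 and 82.7 CPM in CD4 T cells (log2 difference -5.72, edgeR adjusted p = 6.3e-05). S1pr1, which lets T cells leave tissues, was lower by 3.49 on the log2 scale (adjusted p = 2.5e-05), and Tcf7, a factor of naive and memory T cells, by 2.19 (adjusted p = 0.00026). Igfbp4 was lower by 4.62 and Il6ra, an interleukin 6 receptor chain of naive T cells, by 4.16. Tnfrsf4, the costimulatory receptor OX40, was lower by 4.24 and Ctla4, an inhibitory receptor that regulatory T cells carry, by 3.40 (adjusted p = 1.1e-05). The T cell receptor list was split, with 3 genes higher and 9 lower of 21 tested. The 3 higher ones were gamma delta genes: Trdc was higher by 5.55 (adjusted p = 1.2e-05), Trgc1 by 4.07 and Trgc2 by 3.57, while Trac fell by 0.72 (adjusted p = 0.041). Since the CD4 gate demands a Cd4 UMI, it could hold few gamma delta T cells.

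Against NK and ILC1 cells, which were chosen without CD3, the members showed the T cell side. Here 572 of 7618 genes (7.51%) were higher and 554 (7.27%) lower by the same test. Without the A/A TNF library 333 were higher and 325 lower, and without the A/A baseline library 360 were lower. Of 21 T cell receptor genes 16 were higher and 0 lower, and of 7 NKT2 genes (the interleukin 4 producing type) 6 were higher and 0 lower. Il4 had 535 UMIs in members and 0 in NK and ILC1 cells, at least 59.3-fold higher, Cd40lg had 656 UMIs against 0, at least 72.7-fold higher, and Cd5 had 626 against 0, at least 69.4-fold higher. Trac was higher by 5.40 (edgeR adjusted p = 1.8e-09), Cxcr6 by 3.35 (adjusted p = 2.3e-07) and Zbtb16 by 2.63 (adjusted p = 6.2e-05), each in 4 of 4 libraries. Bcl11b, a factor of T cell commitment, was higher by 3.82 and Icos, a costimulatory receptor, by 2.59. Of 39 interferon-stimulated genes, 17 were higher and 0 lower.

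The NK genes ran the other way in this contrast. Of 28 NK receptor genes 22 were lower and 4 higher, and of 18 cytotoxic genes 10 were lower and 3 higher. Gzma was at 324, 236, 1764 and 175 CPM in members in S/S TNF, A/A TNF, S/S baseline and A/A baseline, against 5167, 5141, 8776 and 5671 CPM in NK and ILC1 cells (log2 difference -3.86, edgeR adjusted p = 2.3e-06). Prf1 fell by 3.61 (adjusted p = 1.5e-07), and Eomes, a T-box factor of conventional NK cells, by 3.62 (adjusted p = 0.0012). The signalling adaptors Tyrobp and Fcer1g fell by 3.03 and 2.41. For Gzma, Gzmb, Prf1, Klrd1 and Klrk1 the members were therefore higher than the CD4 T cells and lower than the NK and ILC1 cells: Gzmb fell by 1.17, Klrd1 by 1.32 and Klrk1 by 1.64 in this contrast.

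**Figure D2:**
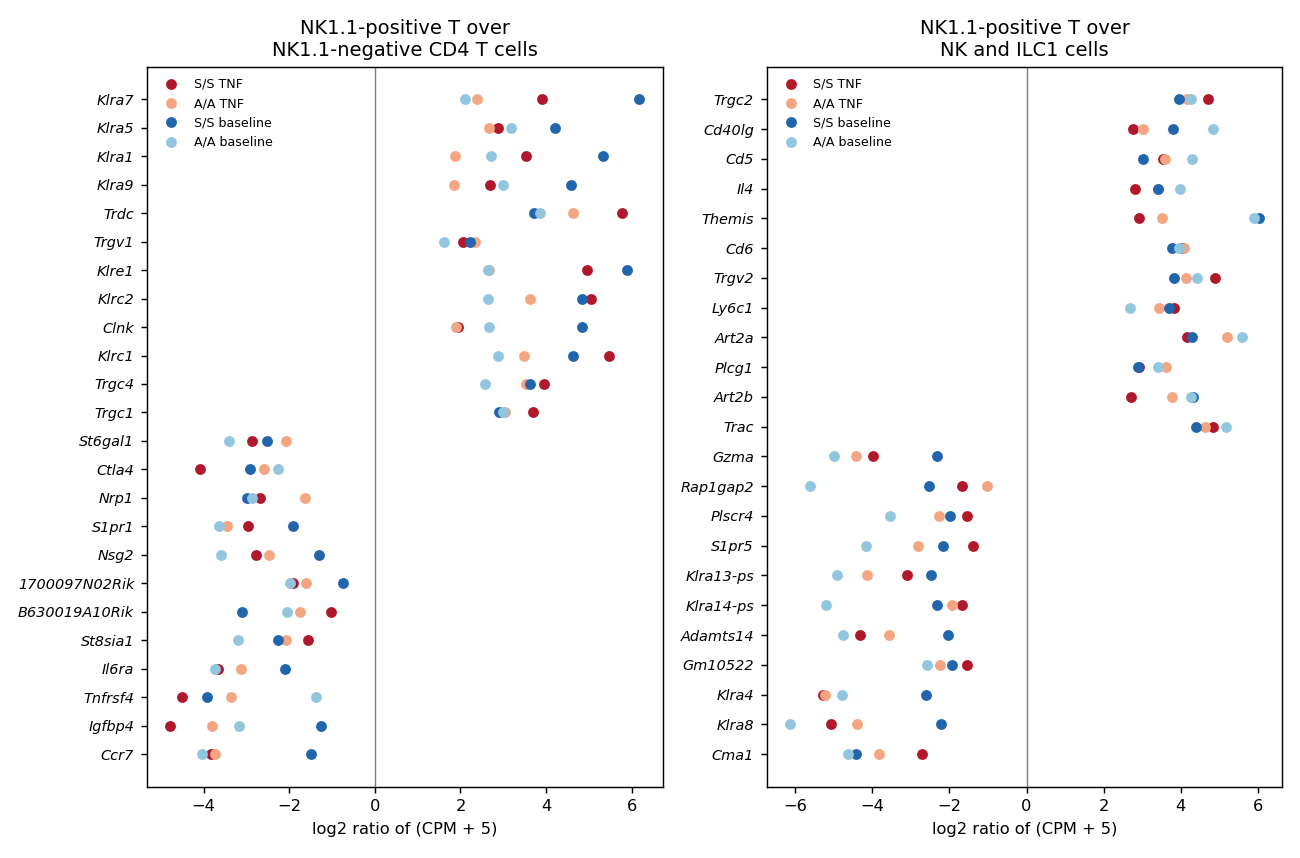
Log2 ratios of CPM (each with 5 CPM added) of NK1.1-positive T cells to NK1.1-negative CD4 T cells (left) and to NK and ILC1 cells (right) for up to 12 of the genes most raised and up to 12 of those most lowered in each contrast, 1 point per library. All 4 points of a gene lie on the same side of 0, as the choice of the genes required, with Klrc2 at 2.64 to 5.05 on the left and Trac at 4.39 to 5.17 on the right.

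Members were not of 1 kind. A Zbtb16 UMI was present in 21.2% [12.1, 33.0] of members in S/S after TNF, 29.8% [25.6, 34.4] in A/A after TNF, 47.4% [37.0, 57.9] in S/S at baseline and 82.4% [76.4, 87.3] in A/A at baseline. With each barcode thinned to 4000 UMIs, which left out 2, 8, 8 and 2 shallower members, the shares were 9.38%, 13.2%, 32.2% and 58.9%. On the B cell side, which should lack the gene, 0.554 to 2.43% of barcodes had a Zbtb16 UMI at medians of 5846 to 9135 UMIs. Zbtb16 was thus seen in a smaller share of S/S than of A/A members at baseline, with intervals that do not overlap, while the intervals after TNF overlap. Zbtb16 was also lower after TNF in the other barcodes (1.69 CPM in S/S and 3.74 in A/A after TNF, against 20.9 in S/S and 52.6 in A/A at baseline), so its shares after TNF and at baseline cannot be told apart from the counting difference. Traj18, the joining segment of the invariant receptor, was present in 0 of 66 members in S/S after TNF, which allows up to 5.44%, and in 4.10%, 12.6% and 24.0% of members in A/A after TNF, S/S at baseline and A/A at baseline.

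The T cell receptor genes split the members further. Trac, the alpha chain constant gene, was counted in 74.2% of members in S/S after TNF, 82.9% in A/A after TNF, 66.3% in S/S at baseline and 86.8% in A/A at baseline. Trdc, the delta chain constant gene, was counted in 28.8% [18.3, 41.3], 19.8% [16.2, 23.9], 20% [12.5, 29.5] and 12.3% [8.09, 17.6]. NK and ILC1 cells without CD3 also held Trdc UMIs, in 27.1%, 46.3%, 32.4% and 39.6% of barcodes, so a Trdc UMI alone does not mark a gamma delta T cell. Foxp3, the regulatory T cell factor, was at 0 UMIs in 3 libraries and in 0.911% of members in A/A after TNF.

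Members with and without Trdc carried different genes in each library. Trac was counted in 36.8% of Trdc-positive and 89.4% of Trdc-negative members in S/S after TNF, in 21.8% and 98.0% in A/A after TNF, in 21.1% and 77.6% in S/S at baseline and in 32.0% and 94.4% in A/A at baseline. Cd4 was seen in 0 of 19, 2 of 87, 1 of 19 and 1 of 25 Trdc-positive members, against 14 of 47, 127 of 352, 20 of 76 and 80 of 179 Trdc-negative ones. Il4 was seen in 0%, 13.8%, 0% and 4% of the Trdc-positive and in 21.3%, 37.5%, 25.0% and 48.6% of the Trdc-negative members. Gzma ran opposite, with 26.3%, 31.0%, 73.7% and 44.0% of the Trdc-positive against 8.51%, 5.40%, 30.3% and 8.38% of the Trdc-negative members. In all 4 libraries, then, Cd4, Il4, Zbtb16 and Cxcr6 were found more in members without Trdc, and Gzma and Ncr1 more in members with it. These are descriptions over cells of the same libraries and carry no test.

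The S/S members at baseline stood apart in NK cell genes. Ncr1, which encodes the NK receptor NKp46, was counted in 6.06% of members in S/S after TNF, 6.83% in A/A after TNF, 30.5% [21.5, 40.8] in S/S at baseline and 8.82% in A/A at baseline. The B cell side was chosen without Ncr1, so it gives no background for this gene. Gzma was counted in 13.6%, 10.5%, 38.9% [29.1, 49.5] and 12.7% of members in the same order. On the B cell side Gzma reached 13.8% of barcodes in the S/S baseline library and 3.46 to 7.48% in the others, which is the background to read these shares against. The 14 NK and ILC1 marker genes summed to 838 CPM in members in S/S after TNF, 668 in A/A after TNF, 2528 in S/S at baseline and 802 in A/A at baseline. How far NK cells caught in the same droplets add to the S/S baseline values was not tested.

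At baseline, S/S members carried more of most NK receptor transcripts and less Zbtb16 and Maf than A/A members. Of 9427 genes compared (at least 20 UMIs in the pair), 743 (7.88%) were over 2-fold higher and 401 (4.25%) over 2-fold lower in S/S. With mitochondrial, ribosomal RNA and Malat1 transcripts left out of the totals the split turned to 476 higher and 606 lower, and the median log2 ratio of all genes moved to -0.053, against 0.13 before, so each ratio is to be read against that shift. The median log2 ratio was 0.35 in genes with under 1 kb of intron and -0.029 in those with over 100 kb. Il31ra and Gphn, which ranked first among the lower genes (log2 ratios -2.29 and -1.85), were lower in the other kept barcodes too. There Il31ra was at 347 CPM in S/S and 1425 in A/A, and Gphn at 750 in S/S and 2504 in A/A. Of 30 NK receptor genes, 23 were over 2-fold higher and 0 lower in S/S, with a median log2 ratio of 1.81. With the second scaling 20 were over 2-fold higher, and among members without an Ncr1 UMI 13 of 23 compared were.

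After TNF the genotype difference was smaller in these lists. Of 10147 genes, 328 (3.23%) were over 2-fold higher and 957 (9.43%) over 2-fold lower in S/S. Of 27 NK receptor genes compared, 8 were over 2-fold higher and 1 lower, with a median log2 ratio of 0.67. The S/S values after TNF rest on 66 cells, and single cells hold a large part of some genes.

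Klra7 was at 70.2 CPM in S/S and 21.1 CPM in A/A after TNF, and at 357 CPM in S/S and 16.4 CPM in A/A at baseline. Its log2 ratio of S/S to A/A was 1.73 [1.20, 2.25] after TNF and 4.44 [3.99, 4.91] at baseline. A single barcode held 40.9% of the Klra7 UMIs in S/S after TNF, 18.4% in A/A after TNF, 9.65% in S/S at baseline and 34.0% in A/A at baseline. Among members without Ncr1 the baseline ratio was 6.54, given without an interval. All A/A members at baseline together held 47 Klra7 UMIs, in 7 barcodes, so few A/A counts stand behind that ratio. Klra1, a second Ly49 gene, was at 52.7 CPM in S/S and 13.2 in A/A after TNF, and at 221 in S/S and 27.6 in A/A at baseline, where its log2 ratio was 3.00 [2.62, 3.40] and 0.97 without the Ncr1-positive members. S/S was above A/A in both genes at both times.

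Eomes showed the same order with few counts. It was at 57.4 CPM in S/S and 3.89 in A/A after TNF (log2 ratio 3.88 [3.07, 4.73]), and at 42.4 CPM in S/S and 2.45 in A/A at baseline (log2 ratio 4.11 [2.93, 5.53]). Eomes UMIs were present in 12.1% of S/S and 2.73% of A/A members after TNF, and in 20% of S/S and 1.96% of A/A members at baseline, with at most 0.385% of B cell side barcodes. Klrg1, an inhibitory receptor of mature effector cells, was at 25.5 CPM in S/S and 7.79 in A/A after TNF, and at 40.1 in S/S and 3.85 in A/A at baseline. Klrb1a, a relative of the NK1.1 gene in the same receptor family, was at 35.1 CPM in S/S and 6.12 in A/A after TNF, and at 75.7 in S/S and 9.45 in A/A at baseline. Crtam, an adhesion molecule of activated cytotoxic lymphocytes, was higher in S/S by log2 1.74 after TNF and 3.34 at baseline, but 1 barcode held 37.5% of its S/S UMIs and 1 barcode 67.7% of its A/A UMIs after TNF. Without the Trdc-positive members the ratio of Crtam after TNF was -0.19.

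**Figure D3:**
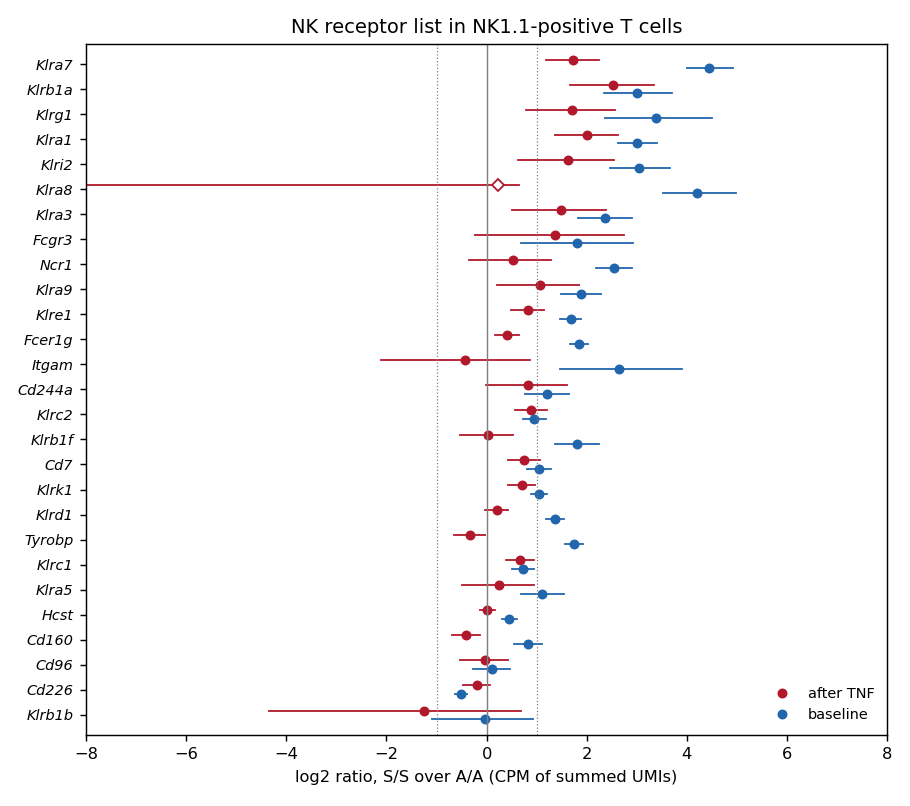
Log2 ratios of S/S to A/A in NK1.1-positive T cells for 27 NK receptor genes after TNF and at baseline, with 95% counting intervals, the dotted lines marking 2-fold; the open diamond is Klra8 after TNF, at 0 UMIs in S/S and set at a floor of 3 UMIs. At baseline Klra7 lay at 4.44 and Klra1 at 3.00, and after TNF at 1.73 and 2.00.

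The cytotoxic and chemokine genes followed in part. Ccl5, a chemokine of memory and cytotoxic T cells, was at 5004 CPM in S/S and 2259 in A/A after TNF (log2 ratio 1.15 [1.09, 1.20]), and at 6482 CPM in S/S and 1278 in A/A at baseline (log2 ratio 2.34 [2.28, 2.40]). In the other kept barcodes it was at 748 CPM in S/S and 1339 in A/A after TNF, and at 3040 in S/S and 1038 in A/A at baseline, so at baseline the difference was also seen outside the members. Gzma was at 324 CPM in S/S and 236 in A/A after TNF, and at 1764 in S/S and 175 in A/A at baseline, a log2 ratio of 0.46 [0.24, 0.67] after TNF and 3.33 [3.19, 3.48] at baseline. A single barcode held 36.5% of the S/S Gzma UMIs after TNF. Gzmb was about as far apart at both times, with 306 CPM in S/S and 148 in A/A after TNF and 335 in S/S and 158 in A/A at baseline (log2 ratios 1.05 and 1.09). Of 19 cytotoxic genes, 3 were over 2-fold higher and 1 lower after TNF, and 6 were higher and 1 lower at baseline. Among all genes 3.23% were higher and 9.43% lower after TNF, and 7.88% were higher and 4.25% lower at baseline.

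In the homing list 3 of 27 genes were over 2-fold higher and 1 lower in S/S after TNF, and 6 of 27 were higher and 1 lower at baseline, where its median log2 ratio of 0.13 equalled that of all genes. Among all genes 3.23% were higher and 9.43% lower after TNF, and 7.88% were higher and 4.25% lower at baseline. Itga4, an integrin chain for entry into inflamed tissue, was at 171 CPM in S/S and 73.1 in A/A after TNF, and at 427 in S/S and 81.9 in A/A at baseline (log2 ratios 1.22 and 2.38). Klf2, a factor that keeps T cells in circulation, was at 155 CPM in S/S and 79.7 in A/A after TNF, and at 276 in S/S and 42.3 in A/A at baseline (0.96 and 2.71). Both genes passed 2-fold in S/S at baseline, and after TNF Klf2 lay just under it. Cxcr6 lay on the other side, at 225 CPM in S/S and 364 in A/A after TNF and at 306 in S/S and 482 in A/A at baseline (log2 ratios -0.69 [-0.95, -0.45] and -0.65 [-0.85, -0.46]).

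Zbtb16 was lower in S/S members at baseline, 132 CPM in S/S and 405 in A/A (log2 ratio -1.62 [-1.91, -1.34]). After TNF it was 31.9 CPM in S/S and 37.5 in A/A, where the interval of the ratio includes 0 (-0.23 [-0.97, 0.43]). At baseline Zbtb16 was also lower in S/S in the other kept barcodes and in the CD4 gate, so the difference was also seen outside the members. Maf, a factor of interleukin 4 and interleukin 10 production in T cells, was lower in S/S at both times, with 84.6 CPM in S/S and 171 in A/A after TNF and 56.2 in S/S and 219 in A/A at baseline (log2 ratios -1.01 and -1.96). Tgfb1, a cytokine that restrains T cells, was at 71.8 CPM in S/S and 150 in A/A after TNF, and at 63.1 in S/S and 123 in A/A at baseline. Dtx1, a Notch target, was at 27.1 CPM in S/S and 60.8 in A/A after TNF, and at 36.7 in S/S and 112 in A/A at baseline. The cytokine gene Il4 was at 30.3 CPM in S/S and 48.4 in A/A after TNF, and at 48.2 in S/S and 74.5 in A/A at baseline, under 2-fold at both times. The NKT program list as a whole had 0 genes over 2-fold higher at either time, 3 of 15 lower after TNF and 2 of 15 lower at baseline. Among all genes 9.43% were lower after TNF and 4.25% at baseline.

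The ratio of TNF to baseline depended on the intron length of the gene in both genotypes. In A/A members, 1134 of 11033 genes (10.3%) were over 2-fold higher and 1980 (17.9%) over 2-fold lower after TNF. In S/S members, 310 of 7152 genes (4.33%) were higher and 1687 (23.6%) lower, and this comparison shares its baseline library with the baseline genotype comparison. The median log2 ratio of all genes was -0.31 in S/S members and 0.0043 in A/A members, and with the second scaling that of S/S was -0.16. In genes with under 1 kb of intron (from GENCODE) it was 0.21 in S/S and 0.54 in A/A, and in genes with over 100 kb it was -1.76 in S/S and -1.61 in A/A. Cmss1, whose intron sequence spans 302868 bases, was at 11.2 CPM in S/S TNF members and 21.1 in A/A TNF members, against 7996 in S/S and 17238 in A/A at baseline. In the other barcodes of the same libraries Cmss1 was at 6.99 and 9.67 CPM after TNF in S/S and A/A, against 6046 and 14178 at baseline. The Cell Ranger version differed between the TNF and the baseline libraries. The intron setting of the counting is not given in the sources used here. The lower values of long-intron genes after TNF are therefore given as values only.

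**Figure D4:**
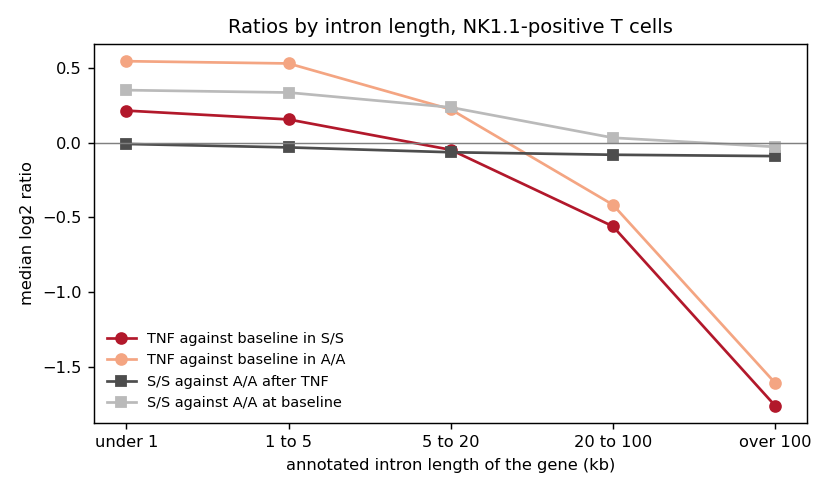
Median log2 ratio of all compared genes in NK1.1-positive T cells by annotated intron length (kb), for TNF over baseline in S/S and A/A (circles) and for S/S over A/A after TNF and at baseline (squares). The TNF medians lie at 0.21 (S/S) and 0.54 (A/A) below 1 kb and at -1.76 (S/S) and -1.61 (A/A) above 100 kb, while those of S/S over A/A run between -0.091 and 0.35.

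After TNF, the members of both genotypes had higher NF-kB target transcripts. Of 34 genes of the NF-kB and TNF response list compared in S/S, 13 were over 2-fold higher and 0 lower, where 4.33% of all genes were higher. Of 38 compared in A/A, 15 were higher and 0 lower, where 10.3% of all genes were higher. The median log2 ratio of the list was 0.81 in S/S and 0.74 in A/A. The receptors were counted at low levels in each group: Tnfrsf1a was at 20.7 CPM in S/S after TNF, 37.3 in A/A after TNF, 31.0 in S/S at baseline and 31.5 in A/A at baseline, and Tnfrsf1b at 31.9, 48.6, 21.8 and 42.7 CPM.

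Several NF-kB inhibitor and subunit genes passed 2-fold in both genotypes. Nfkbia, which encodes the inhibitor IkB alpha, was at 602 CPM in S/S after TNF against 128 in S/S at baseline (log2 ratio 2.23 [1.92, 2.54]), and at 556 CPM in A/A after TNF against 157 in A/A at baseline (1.82 [1.68, 1.97]). Nfkb2, the p100 subunit of the non-canonical branch, was at 68.6 CPM in S/S after TNF against 12.6 at baseline (2.44 [1.46, 3.55]), and at 96.2 CPM in A/A after TNF against 25.2 at baseline (1.93 [1.58, 2.31]). Nfkbie, another IkB gene, was at 55.8 CPM in S/S after TNF against 12.6 at baseline and at 59.7 in A/A after TNF against 29.7 at baseline (2.15 and 1.01). In S/S after TNF, Nfkbia and Nfkb2 were each lower in members than in the other kept barcodes. What free RNA of other cells adds to these genes was not tested. Nfkbia has 1628 bases of intron, a length class (1 to 5 kb) in which the median log2 ratio of all genes was 0.15 in S/S and 0.53 in A/A.

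The promoters of Nfkbia and Nfkb2, and of Serpina3g described further on, are shown because their transcripts had some of the highest ratios in both genotypes and because each holds the letters of an NF-kB motif. The windows run from 250 bases before to 50 after the gene's start (RefSeq, build GRCm38.p6), 5′ to 3′ on the gene's own strand, at chr12:55492598-55492897 (minus strand) for Nfkbia, chr19:46304487-46304786 (plus strand) for Nfkb2 and chr12:104235897-104236196 (plus strand) for Serpina3g. Capitals mark matches to GGGNNNTTCC on either strand. Nfkb2 had 3 such windows, and the one shown is the first that held a match.
Nfkbia: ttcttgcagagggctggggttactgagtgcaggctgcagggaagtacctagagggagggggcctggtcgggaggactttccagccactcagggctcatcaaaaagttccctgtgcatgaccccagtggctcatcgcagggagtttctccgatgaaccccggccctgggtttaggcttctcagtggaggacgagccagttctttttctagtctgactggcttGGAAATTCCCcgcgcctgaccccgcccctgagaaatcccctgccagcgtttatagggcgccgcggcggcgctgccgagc
Nfkb2: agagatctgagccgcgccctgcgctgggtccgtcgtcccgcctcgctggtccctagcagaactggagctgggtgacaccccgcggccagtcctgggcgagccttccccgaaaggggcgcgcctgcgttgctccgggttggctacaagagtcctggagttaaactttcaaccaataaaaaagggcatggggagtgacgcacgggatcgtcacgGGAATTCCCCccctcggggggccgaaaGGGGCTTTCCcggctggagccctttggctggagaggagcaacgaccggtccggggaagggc
Serpina3g: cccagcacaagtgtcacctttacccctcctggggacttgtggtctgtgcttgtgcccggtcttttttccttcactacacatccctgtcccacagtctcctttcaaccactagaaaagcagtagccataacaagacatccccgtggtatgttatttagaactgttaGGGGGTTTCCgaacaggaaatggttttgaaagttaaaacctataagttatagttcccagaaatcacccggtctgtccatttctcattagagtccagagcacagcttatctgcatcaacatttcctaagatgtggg
The match begins at base 222 of the Nfkbia window and base 166 of the Serpina3g window, and the pair in Nfkb2 at bases 213 and 240. The motif was present in 1825 of 32851 promoter windows (5.56%) and in 1704 of 27025 genes (6.31%). Of the 32 list genes with a window 10 held it, and of the 8 over 2-fold higher in both genotypes with a window, 3 did: Nfkbia, Nfkbie and Nfkb2. A match is a run of letters, not a shown binding site.

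Further members passed 2-fold in both genotypes. Icam1, the adhesion molecule for leukocytes, was at 128 CPM in S/S after TNF against 35.6 at baseline (log2 ratio 1.84 [1.23, 2.49]), and at 152 in A/A after TNF against 68.2 at baseline (1.15 [0.93, 1.39]). Irf1, a factor of interferon and MHC genes, was at 279 CPM in S/S after TNF against 95.2 at baseline and at 233 in A/A after TNF against 106 at baseline (1.55 and 1.13). Ehd1, an endosome recycling protein, had log2 ratios of 3.20 in S/S and 2.35 in A/A, and Traf1, an adaptor of TNF receptors, 1.03 and 1.23. Ier3, an early survival gene, had ratios of 4.32 [2.67, 6.65] in S/S and 3.41 [2.33, 4.75] in A/A, with most of its S/S UMIs after TNF in 1 barcode. The list was not uniform: Nfkb1 was at 150 CPM in S/S after TNF against 195 at baseline and at 166 in A/A after TNF against 234 at baseline, and Rel had log2 ratios of -0.37 and -0.71. Tnfaip3, the A20 brake on the pathway, stayed within 2-fold in both, with log2 ratios of 0.35 in S/S and 0.67 in A/A.

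**Figure D5:**
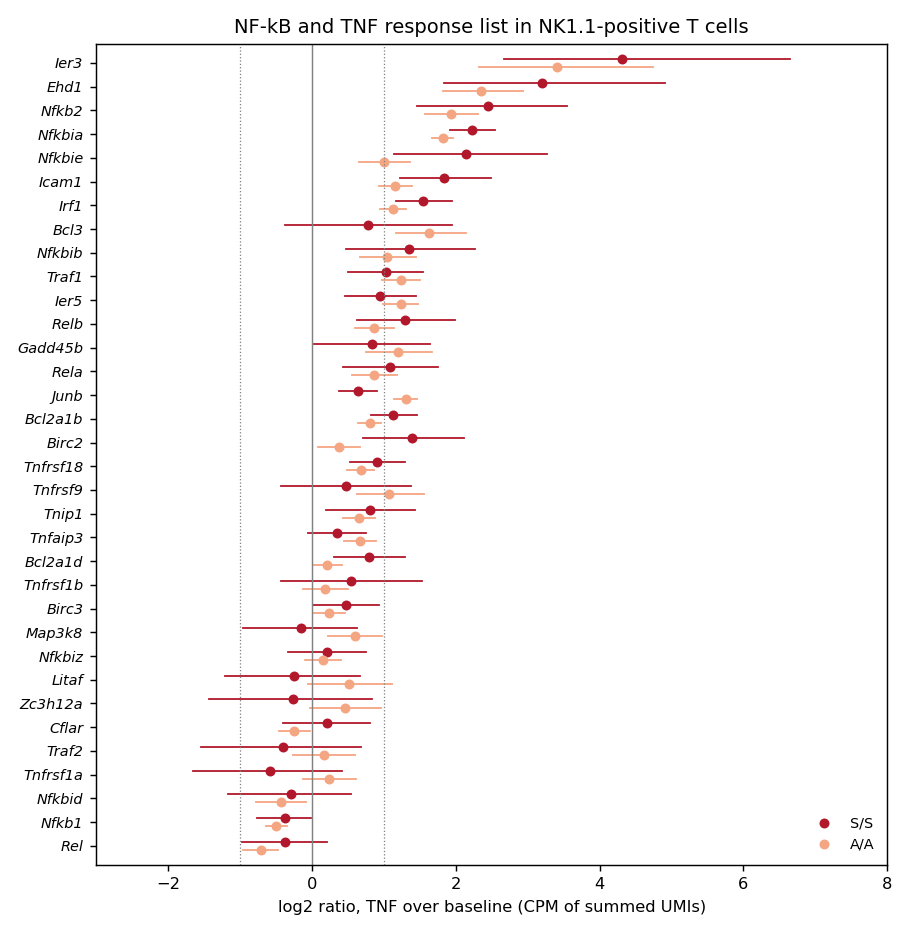
Log2 ratios of TNF to baseline in NK1.1-positive T cells for 34 genes of the NF-kB and TNF response list in S/S and A/A, with 95% counting intervals, the dotted lines marking 2-fold. Nfkbia lay at 2.23 in S/S and 1.82 in A/A, and Nfkb1 at -0.38 and -0.49.

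Outside that list, Serpina3f and Serpina3g, serine protease inhibitors, were among the genes with the highest ratios in both genotypes. Serpina3g was at 565 CPM in S/S after TNF against 111 at baseline (log2 ratio 2.34 [2.02, 2.68]) and at 462 in A/A after TNF against 72.1 at baseline (2.68 [2.48, 2.89]). Serpina3f was at 362 CPM in S/S after TNF against 33.3 at baseline and at 320 in A/A after TNF against 49.7 at baseline. Il7r, the interleukin 7 receptor that sustains T cells, was at 512 CPM in S/S after TNF against 139 at baseline (1.88 [1.58, 2.20]) and at 432 in A/A after TNF against 111 at baseline (1.96 [1.79, 2.14]). Sdhaf1, an assembly factor of mitochondrial complex II, had log2 ratios of 2.83 in S/S and 2.56 in A/A, Gpc1, a cell surface proteoglycan, 2.22 and 1.66, and Mettl1, an RNA methyltransferase, 2.20 and 1.65. Sdhaf1 has 0 bases of annotated intron, in the class under 1 kb with medians of 0.21 in S/S and 0.54 in A/A. It was also higher after TNF in the other barcodes (105 against 34.9 CPM in S/S, 65.3 against 18.7 in A/A), as were Serpina3f and Serpina3g. In the other kept barcodes Il7r was lower or little different after TNF, with 61.2 CPM in S/S after TNF against 114 at baseline and 93.3 in A/A after TNF against 113 at baseline.

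Stress-response genes were also higher. The metallothionein gene Mt1 was at 247 CPM in S/S after TNF against 11.5 at baseline and at 288 in A/A after TNF against 4.55 at baseline, but the other barcodes held 3103 CPM in S/S and 2135 in A/A after TNF, against 109 in S/S and 50.6 in A/A at baseline. Hmox1, which degrades heme, was at 238 CPM in S/S after TNF against 44.7 at baseline and at 58.6 in A/A after TNF against 5.95 at baseline, again with more in the other barcodes (1250 and 724 CPM after TNF in S/S and A/A). What free RNA of other cells adds to Mt1 and Hmox1 was not tested. Sod2, a mitochondrial superoxide dismutase, had log2 ratios of 1.21 in S/S and 1.70 in A/A, and Dusp1, a MAP kinase phosphatase, 2.34 and 2.06. Of the metallothionein and oxidative stress list, 6 of 18 genes were over 2-fold higher in S/S and 9 of 20 in A/A, with 0 lower in either. Among all genes 4.33% were higher in S/S and 10.3% in A/A.

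Of the immediate early list, 6 of 26 genes were over 2-fold higher and 4 lower in S/S, and 10 of 28 were higher and 4 lower in A/A. Among all genes 4.33% were higher and 23.6% lower in S/S, and 10.3% were higher and 17.9% lower in A/A. The shares of lower genes in the list were thus below those of all genes. Fos was at 20.7 CPM in S/S after TNF against 24.1 at baseline (log2 ratio -0.22 [-1.34, 0.85]) and at 29.3 in A/A after TNF against 7.35 at baseline (2.00 [1.33, 2.73]). Egr1 lay lower after TNF in both, with log2 ratios of -1.93 in S/S and -1.17 in A/A. Of 14 glucocorticoid-response genes, 3 were over 2-fold higher and 2 lower in S/S, and 6 were higher and 2 lower in A/A. The cytokine signal inhibitor Socs1 was at 176 CPM in S/S after TNF against 89.5 at baseline and at 195 in A/A after TNF against 78.0 at baseline. These genes also respond to cell isolation, whose part was not tested.

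Most antigen presentation genes stayed within 2-fold, although 13 of 17 in S/S and 15 of 17 in A/A had log2 ratios above 0. The list's median was 0.34 in S/S and 0.72 in A/A, against -0.31 and 0.0043 over all genes. These medians are not adjusted for intron length. The proteasome activator gene Psme2 was at 434 CPM in S/S after TNF against 193 at baseline and at 461 in A/A after TNF against 204 at baseline, a log2 ratio of 1.17 in each. B2m, the light chain of MHC class I, had ratios of 0.74 in S/S and 0.79 in A/A. Of 17 MHC class I genes, 1 was over 2-fold higher and 1 lower in S/S, and 3 were higher and 1 lower in A/A. Of the interferon-stimulated list, 6 of 41 genes were higher and 5 lower in S/S, where 4.33% of all genes were higher and 23.6% lower, and 4 of 49 were higher and 8 lower in A/A, near or below the 10.3% and 17.9% of all genes.

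The cytokine genes for which NKT cells are known were not higher after TNF at this time. Il4 was at 30.3 CPM in S/S after TNF against 48.2 at baseline and at 48.4 in A/A after TNF against 74.5 at baseline. Ifng, the interferon gamma gene, was at 17.6 CPM in S/S after TNF against 45.9 at baseline and at 30.6 in A/A after TNF against 67.9 at baseline (log2 ratios -1.39 and -1.15). The chemokine gene Xcl1 was at 365 CPM in both genotypes after TNF, against 270 in S/S and 200 in A/A at baseline. Ltb, lymphotoxin beta, had ratios of 0.92 in S/S and 1.08 in A/A, and the activation marker Cd69 0.91 and 0.99. In A/A members 5 of 17 cytokine ligand genes were over 2-fold higher and 3 lower, and in S/S members 1 of 12 was higher and 3 were lower. The shares of lower genes are near those of all genes, 17.9% in A/A and 23.6% in S/S. Of all genes, 10.3% were higher in A/A and 4.33% in S/S.

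The lineage factors Zbtb16 and Tbx21 were lower after TNF in both genotypes, and in the other barcodes too. Zbtb16 had log2 ratios of -2.05 [-2.81, -1.35] in S/S and -3.43 [-3.66, -3.22] in A/A, and in the other kept barcodes it was at 1.69 CPM in S/S and 3.74 in A/A after TNF, against 20.9 in S/S and 52.6 in A/A at baseline. Its introns add up to 176643 bases. Tbx21, with 14773 bases of intron, was at 41.5 CPM in S/S after TNF against 195 at baseline and at 44.5 in A/A after TNF against 185 at baseline. In the other barcodes Tbx21 was at 2.17 CPM in S/S and 8.80 in A/A after TNF, against 39.9 in S/S and 50.6 in A/A at baseline. Of the lineage factor list, 2 of 23 genes were over 2-fold higher and 11 lower in S/S, where 23.6% of all genes were lower, and 4 of 26 were higher and 10 lower in A/A, where 17.9% of all genes were lower. These values cannot be told apart from the counting difference between the libraries.

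NK receptor genes moved unequally in the genotypes. Of 29 compared in each, 0 were over 2-fold higher and 19 lower after TNF in S/S, and 3 were higher and 8 lower in A/A. Among all genes 4.33% were higher and 23.6% lower in S/S, and 10.3% were higher and 17.9% lower in A/A. Klra7 was at 70.2 CPM in S/S after TNF against 357 at baseline, and at 21.1 in A/A after TNF against 16.4 at baseline. Among members without an Ncr1 UMI, 7 of 23 such genes compared were over 2-fold lower in S/S. The difference between the genotypes was not tested.

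The same ratios were taken in CD4 T cells and NK cells of the same libraries, which share their counting. Nfkbia had log2 ratios of TNF to baseline of 2.23 in S/S and 1.82 in A/A members, 1.89 and 2.33 in CD4 T cells, and 2.18 and 2.09 in NK and ILC1 cells. For Icam1 the ratios were 1.84 and 1.15 in members, 2.09 and 2.67 in CD4 T cells and 1.36 and 1.66 in NK and ILC1 cells, with the A/A members below the A/A CD4 T cells. Il7r had 1.88 and 1.96 in members, 0.56 and 0.82 in CD4 T cells, and 0.87 and 0.41 in NK and ILC1 cells, so its ratio was larger in members in both genotypes. The difference between the ratio in members and that in CD4 T cells had a median over genes of 0.019 in S/S (6972 genes) and -0.041 in A/A (7909 genes). It was above 1 for 720 genes and below -1 for 677 in S/S, and above 1 for 375 and below -1 for 485 in A/A, with no test of any gene.

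Markers of other cells were present at low levels in members and partly moved with TNF. The neutrophil list summed to 905 CPM in S/S and 1255 in A/A members after TNF, against 75.7 in S/S and 130 in A/A at baseline, and to 21242, 29899, 3082 and 2022 CPM in the other barcodes in the order S/S TNF, A/A TNF, S/S baseline, A/A baseline. Kupffer cell and macrophage markers summed to 501, 523, 744 and 164 CPM in members in that order, and B cell markers to 219, 296, 274 and 186 CPM. Of 12 B cell markers 6 were at 0 in S/S after TNF. The part of these cells in the values above was not tested.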

How the data were processed

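The authors' deposited matrices held raw UMI counts per gene and barcode, made with Cell Ranger, version 6.1.2 for the TNF and 7.1.0 for the baseline libraries per the file headers, against mm39 per the submitters' processing notes. Intron counting is not given in the sources used here. In the TNF matrices the lowest barcode had 250 genes and none exceeded 20% mitochondrial UMIs, limits that the baseline matrices did not show. Members and lists were chosen with earlier results of these data known. No doublet caller was run, and members over 2 times the median depth were left out as an alternative.

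Counts were summed per gate and library and scaled to the gate's total (CPM). Log2 ratios between libraries had no pseudocount, exact binomial 95% intervals and a floor of 3 UMIs for 0. A gene was compared with at least 20 UMIs in the pair. Gates were compared with edgeR 4.0.16 (R 4.3.3; quasi-likelihood, filterByExpr, Benjamini-Hochberg adjusted p under 0.05, library as a block), tested on simulated data. The pairing comes from the libraries: both gates of a pair were in the same library. DESeq2 1.42.0 was an alternative. Shares have Clopper-Pearson intervals. Per-library differences between gates used 5 CPM as pseudocount.

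Named genes had at least 30 UMIs, were no lower in members than in other barcodes of the higher library, and ranked among the first 10 each way by the bound of the interval nearest 0, by the smaller ratio where both genotypes or both times were used, or among 12 each way in the gate contrasts; list genes were the first 4 by size and those that a description of function needed. Some genes that met this rule are not reported here. Of 556 listed genes, 553 were found by symbol. Intron lengths came from a GENCODE annotation by gene identifier and promoters from RefSeq (GRCm38.p6) by gene. Neither was set beside mm39 coordinates. The other tools were scipy 1.17.1, numpy 2.4.6 and pandas 2.3.3 under Python 3.11.15, with figures by matplotlib 3.10.9.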

Additional observations from a re-analysis of the deposited data

Results flagged for a closer look

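Over both gate contrasts, 48 named gene contrasts had 4 library values each, and in 2 of them, both against CD4 T cells, 1 library stood apart from the other three. For Trgc1 the gap to the nearest library was 0.838 of the whole range of log2 differences, and for Ccr7 it was 0.88. The Ccr7 library was S/S at baseline, at -1.50, where the others lay between -4.03 and -3.73. Chance flags about 1 in 20 such groups.

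Of 5850 genes compared between TNF and baseline in both genotypes, 16 were over 2-fold in opposite directions, 14 of them higher in A/A and lower in S/S. The difference between the genotypes was not tested for any. Among listed genes, the chemokine gene Ccl4 had a log2 ratio of -1.43 in S/S and 1.33 in A/A and the cell cycle gene Stmn1 -1.67 in S/S and 1.31 in A/A. Markers of other cells were among them too: Alb (hepatocytes) had 1.33 in S/S and -1.19 in A/A, Igkc (B cells) -1.05 in S/S and 1.07 in A/A, and Lyz2 (myeloid cells) -2.15 in S/S and 1.98 in A/A. Single barcodes held much of some: 83.8% of the Lyz2 UMIs in S/S and 78.5% in A/A at baseline, 64.1% of the Alb UMIs in A/A at baseline, 42.7% of the Ccl4 UMIs in S/S at baseline and 57.1% of the Stmn1 UMIs in S/S after TNF.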

How the results depend on the processing

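Each group was 1 library of 2 pooled mice, so every value between conditions has counting error only, and the S/S values after TNF rest on 66 cells. Of the summary values, 172 stayed within 1.5 times of the reported one or within its interval and 77 did not. Leaving out a replicate within a group was not possible with 1 library each.

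The share of CD3-positive barcodes was 39.1% in A/A after TNF, 7.06% in S/S at baseline and 31.3% in A/A at baseline with at least 2 Klrb1c UMIs. It was 6.76% in S/S at baseline without Ncr1. Without Trdc it was 15.5% (S/S TNF), 34.4% (A/A TNF), 7.78% (S/S baseline) and 36.9% (A/A baseline). Thinned to 1000 UMIs it was 13.3%, 23.7%, 4.22% and 14.3% in the same order, and thinned to 4000 it was 30.2% in A/A at baseline.

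For TNF in S/S, genes over 2-fold higher numbered 142 with a pseudocount of 10 CPM, 118 with at least 50 UMIs, 3609 with no minimum, 57 thinned to 1000 UMIs and 153 with introns under 5 kb. Lower genes numbered 932 with at least 50 UMIs, 3855 with no minimum, 253 thinned and 71 with short introns. NF-kB genes higher numbered 3 of 7 compared when thinned and 5 of 10 with short introns, and NK receptor genes lower numbered 7 of 23 without Ncr1, 7 of 15 thinned and 3 of 5 with short introns, so fewer genes were compared. For TNF in A/A, higher genes numbered 228 with the pseudocount, 684 with at least 50 UMIs, 1904 with no minimum, 445 thinned and 573 with short introns, and lower genes 1028 with the pseudocount, 5764 with no minimum, 803 thinned and 102 with short introns. NF-kB genes higher in A/A numbered 9 of 27 thinned and 8 of 11 with short introns.

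For S/S against A/A after TNF, higher genes numbered 38 with the pseudocount, 135 with at least 50 UMIs, 7480 with no minimum and 159 thinned, and lower genes 73 with the pseudocount, 526 with at least 50 UMIs and 353 thinned. NK receptor genes higher numbered 3 of 27 with the pseudocount and 1 of 13 thinned. At baseline, higher genes numbered 476 with totals that leave out mitochondrial, ribosomal RNA and Malat1 transcripts, 198 with the pseudocount, 331 with at least 50 UMIs, 6290 with no minimum and 184 thinned. Lower genes at baseline numbered 606 with those totals, 62 with the pseudocount, 202 with at least 50 UMIs, 702 with no minimum and 167 thinned. NK receptor genes higher at baseline numbered 13 of 23 without Ncr1 and 10 of 16 thinned. With at least 50 UMIs, the genes whose TNF ratio in members and in CD4 T cells lay at least 1 apart, in either direction, numbered 482 in S/S and 267 in A/A.

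The gate contrasts were fitted with the library as a block, since both gates of a pair come from 1 library. With no replicate block, 28 genes were higher and 21 lower than in CD4 T cells, and 71 higher and 67 lower than in NK and ILC1 cells. Thinned, the counts were 43 and 32 against CD4 T cells and 145 and 113 against NK and ILC1 cells. With a minimum of 1 UMI they were 405 higher and 422 lower against CD4 T cells, and 871 higher against NK and ILC1 cells, where DESeq2 called 338 lower. DESeq2 called 167 higher and 199 lower against CD4 T cells and 394 higher against NK and ILC1 cells. Leaving out 1 library at a time gave 145 to 224 higher and 144 to 237 lower against CD4 T cells, and 333 to 627 higher and 325 to 501 lower against NK and ILC1 cells. The counts of 144, 333 and 325 are those without A/A TNF.

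Among single genes 3 ratios that stood past 2-fold changed sign. Sign changes of smaller ratios between conditions were not counted. The TNF ratio of Klra3 in A/A was 0.59 and that of Klra1 in S/S 0.13 without Ncr1, and that of Crtam between S/S and A/A after TNF was -0.19 without Trdc. The cause of these shifts was not tested.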
